A study of Mus musculus with 10 samples.

Results

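Lair1 and 9 genes of related leukocyte receptors were followed in nonclassical monocytes that lack LAIR1. The 10 genes were taken by name as the leukocyte immunoglobulin-like receptor (LILR) family and its neighbours in the mouse leukocyte receptor complex: Lair1, Pirb, Pira2, Lilra5, Lilra6, Lilrb4a, Lilr4b, Oscar, Tarm1 and Ncr1. All 10 were found among the 52636 genes of the count table, and 6 of them were abundant enough to test among 13469 tested genes. Nonclassical monocytes, the patrolling subset, had been sorted from mouse bone marrow, and their RNA was sequenced in bulk from a low-input preparation of 5000 to 10000 cells. There were 5 libraries of genotype LAIR1+/+ (WT) and 5 of genotype LAIR1-/- (LAIR1KO), with no treatment in either group. The labels give no strain or age of the mice and do not say how the LAIR1-/- allele was made. The comparison asks whether the loss of one receptor of the family was accompanied by other levels of its relatives.

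The family works as pairs of inhibitory and activating receptors with similar extracellular immunoglobulin domains. Inhibitory members (Lair1, Pirb, Lilrb4a) carry ITIM motifs in their tails, which recruit the phosphatase SHP-1 (Ptpn6) and related enzymes that dampen signalling. Activating members (the PIR-A receptors such as Pira2 and Lilra6, and Lilra5, Oscar, Tarm1 and Ncr1) have short tails and signal through ITAM adaptors, chiefly the Fc receptor gamma chain encoded by Fcer1g. Lair1, Oscar and Tarm1 bind collagens, Lair1 also binds the collagen-like tail of complement C1q, and PIR-A and PIR-B bind MHC class I. In monocytes and macrophages such receptors set the threshold for activation on contact with matrix or with other cells.

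Of the 5 relatives that could be tested, 1 passed the threshold of an adjusted p under 0.05, which 6.79% of all tested genes passed. This was Lilra6, a PIR-A receptor at a low level, which rose 1.99-fold. Its edgeR adjusted p was 0.0498, and the call was lost in 15 of 21 alternative analyses. Of these 15, 8 had 1 library left out, and both analyses with a pair of libraries left out were also among them. Such fits rest on fewer libraries. The abundant relatives Pirb and Lilra5 did not pass, with 95% intervals of the fold from 0.852 to 1.10 and from 0.782 to 1.20. Lilr4b and Pira2 had lower means in LAIR1KO and did not pass. Lilrb4a, Oscar, Tarm1 and Ncr1 held at most 16 counts in any library.

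Of the 10 genes, 8 lie together on chromosome 7 of GRCm38, between the start of Tarm1 (chr7:3486500-3502624, minus strand) and the end of Ncr1 (chr7:4337724-4345164, plus strand). Lair1 (ENSMUSG00000055541, chr7:4003402-4063204, minus strand) lies among them. On the Lair1 side of Oscar (chr7:3609813-3616157), the paired immunoglobulin-like receptors Pirb (chr7:3711409-3720391), Pira2 (chr7:3836812-3845051) and Lilra6 (chr7:3908280-3915503) follow on the same strand, with starts 342.8 kb, 218.2 kb and 147.7 kb from that of Lair1. Lilra5 (chr7:4237754-4243463, plus strand) starts 174.6 kb away on the other side. Lilr4b (chr10:51480632-51486703) and Lilrb4a (chr10:51490956-51496611) are neighbours on the plus strand of chromosome 10.

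The PIR genes are near-copies of each other, which bears on how reads can be assigned to them. The sequences below are the 250 bases before the RefSeq start of each gene (GRCm38.p6, minus strand of chromosome 7, 5′ to 3′). They are shown because the counts of the PIR genes differed widely behind almost the same upstream sequence. Capitals in Pirb mark bases at which at least 1 of the other 3 PIR genes differs, and capitals in the others mark differences from Pirb where the windows overlap. Capitals in Lair1 mark a match to the core GAGGAA of PU.1, the lineage factor of monocytes, read on the opposite strand.
Lair1 (chr7:4063205-4063454): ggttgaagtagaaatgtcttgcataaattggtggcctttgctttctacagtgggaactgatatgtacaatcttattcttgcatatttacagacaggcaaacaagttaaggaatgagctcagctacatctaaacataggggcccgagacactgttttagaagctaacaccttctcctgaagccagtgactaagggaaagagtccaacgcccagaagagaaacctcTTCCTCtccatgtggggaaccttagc
Pirb (chr7:3720383-3720632): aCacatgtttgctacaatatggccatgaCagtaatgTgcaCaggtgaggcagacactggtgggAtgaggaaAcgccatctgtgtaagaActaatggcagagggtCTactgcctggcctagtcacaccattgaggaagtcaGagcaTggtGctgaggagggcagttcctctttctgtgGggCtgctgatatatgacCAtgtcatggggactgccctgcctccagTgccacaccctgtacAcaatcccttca
Pira2 (chr7:3845052-3845301): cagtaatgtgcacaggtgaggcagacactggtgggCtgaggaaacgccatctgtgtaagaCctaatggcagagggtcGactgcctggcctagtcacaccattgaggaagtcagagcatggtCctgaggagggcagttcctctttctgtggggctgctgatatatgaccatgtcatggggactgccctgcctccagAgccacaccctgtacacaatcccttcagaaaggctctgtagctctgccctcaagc
Lilra6 (chr7:3915502-3915751): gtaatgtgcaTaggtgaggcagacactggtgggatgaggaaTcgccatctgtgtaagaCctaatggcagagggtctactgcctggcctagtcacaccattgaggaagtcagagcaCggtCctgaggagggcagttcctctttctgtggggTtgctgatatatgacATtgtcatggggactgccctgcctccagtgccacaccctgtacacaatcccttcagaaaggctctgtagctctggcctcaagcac
Gm14548 (chr7:3898142-3898391): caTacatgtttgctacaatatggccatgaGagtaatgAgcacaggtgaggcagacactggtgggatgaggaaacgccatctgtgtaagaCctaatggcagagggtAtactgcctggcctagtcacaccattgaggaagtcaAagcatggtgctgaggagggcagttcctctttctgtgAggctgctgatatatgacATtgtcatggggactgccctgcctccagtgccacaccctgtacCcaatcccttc

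Gm14548 is a predicted PIR-like gene between Pira2 and Lilra6 (ENSMUSG00000074417, chr7:3884242-3898120). It was picked out for this account after its values had been seen. Over the columns that overlap, Pirb was identical to Pira2 at 97.7% of 222 positions and to Lilra6 at 96.4% of 220. The lowest identity was 94.6%, between Pira2 and Gm14548. The letters GAGGAA were searched on both strands of the same windows, and Pirb, Pira2, Lilra6 and Gm14548 each held 3 matches. Lair1, Lilra5, Oscar and Tarm1 held 1 each, and Lilr4b and Ncr1 held none. Of 32851 mouse upstream windows of this length, 23.3% held at least 1. The letters TGACTCA of AP-1 were in none of these windows and in 4.46% of all, and AAAGGTCA, searched for nuclear receptors of the NR4A kind, was in none and in 1.34% of all. A match of letters does not show a bound site.

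Within the coding sequence, identity depended on the stretch. The 2 pairs below are from Pirb and Lilra6 (GRCm38, minus strand). They were chosen by a search for the most and the least alike stretches of 75 bases. Only stretches that aligned without a gap and did not cross an exon boundary were searched, so coding bases present in just 1 gene were left out. The pairs show what a read had to carry to be placed in 1 of the genes. In the first pair no base differed. In the second, 13 bases differed, and they are in capitals.
Pirb, most alike (chr7:3719793-3719867): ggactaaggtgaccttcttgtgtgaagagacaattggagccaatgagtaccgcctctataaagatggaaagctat
Lilra6, most alike (chr7:3914945-3915019): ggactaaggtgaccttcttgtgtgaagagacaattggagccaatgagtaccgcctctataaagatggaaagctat
Pirb, least alike (chr7:3719351-3719425): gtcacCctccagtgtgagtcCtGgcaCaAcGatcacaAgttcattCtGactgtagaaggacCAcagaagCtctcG
Lilra6, least alike (chr7:3914503-3914577): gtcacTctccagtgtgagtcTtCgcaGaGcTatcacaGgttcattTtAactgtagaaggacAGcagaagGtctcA

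Over the whole annotated exons, 31.3% of the 50-base words of Lilra6 occurred in at least 1 other gene. Pirb held 21.7% of all Lilra6 words, the largest share of any gene. The share was 34.0% for Pirb and 93.0% for Pira2, of whose words 82.6% were also in Gm15922, a neighbouring polymorphic pseudogene. It was 24.5% for Lilr4b, 47.2% for Lilrb4a, 1.5% for Lair1 and 0 for Lilra5. Counts of Lilra5 are thus free of this limit. Counts of Pira2, Gm14548 (71.2%) and Gm15922 (91.3%) are uncertain, because how reads that match several genes were counted is not stated in the labels.

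Lair1 itself was the check of the genotype. The WT libraries held 399.7, 385.7, 373.1, 384.9 and 327.6 CPM (counts per 1000000, with library sizes scaled by TMM), and the LAIR1KO libraries held 0.192, 0.673, 0.265, 0 and 0. Every LAIR1KO library was far below every WT library. The fit gave a log2 fold change of -10.58 ± 0.34 (SE, edgeR adjusted p = 1.62e-09), and Lair1 passed in 22 of 22 alternative analyses. A few reads therefore remained in 3 LAIR1KO libraries, 17 counts in all, and where in the gene they lay cannot be read from gene-level counts.

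**Figure D1:**
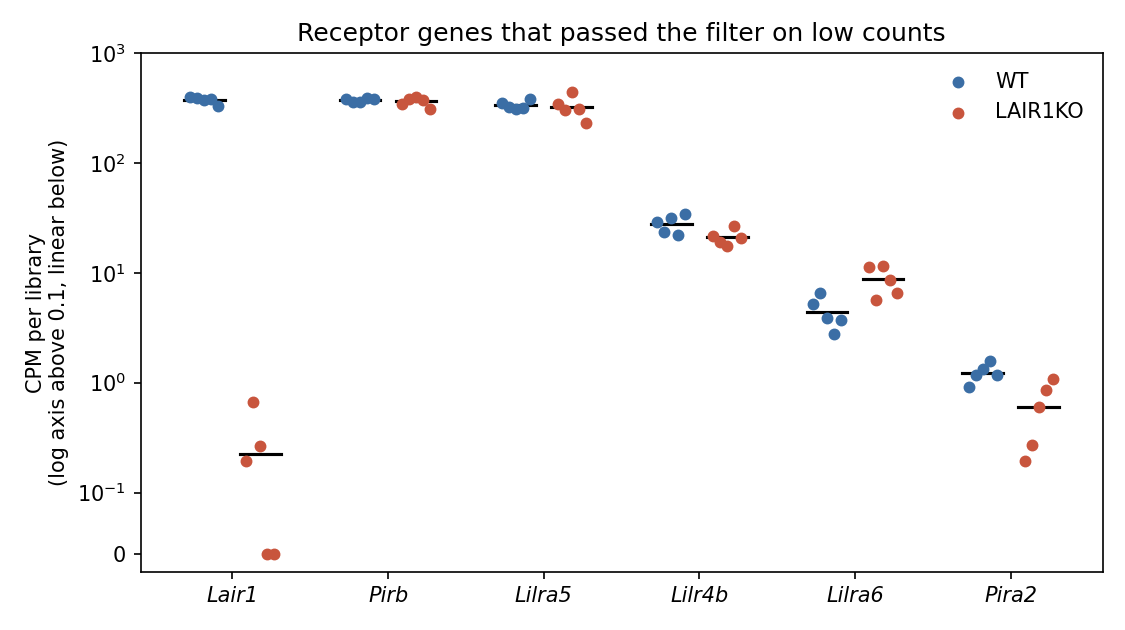
Level in CPM of Lair1, Pirb, Lilra5, Lilr4b, Lilra6 and Pira2 in each library (log-like vertical axis that includes 0; WT and LAIR1KO points, bars are group means). Lair1 alone separates widely, from 327.6 to 399.7 CPM in WT to at most 0.673 CPM in LAIR1KO, while Pirb and Lilra5 overlap between the groups.

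To order the receptors, CPM were divided by the annotated exon length of each gene, in kb. In WT the level per kb was 159.2 ± 14.8 for Lilra5, 83.5 ± 3.26 for Pirb, 50.1 ± 3.70 for Lair1, 5.16 ± 0.986 for Lilr4b and 1.44 ± 0.475 for Lilra6 (SD, n = 5). The WT range of each of these 5 genes lay wholly above that of the next. Below them, the ranges of Pira2 (0.357), Tarm1 (0.276), Ncr1 (0.0435), Oscar (0.00839) and Lilrb4a (0.00322) overlapped with that of their neighbour in the order. WT libraries thus held an activating receptor, Lilra5, at 1.91 times the level of the inhibitory Pirb, and Pirb at 1.67 times that of Lair1, both per kb. The places of Pira2 and Lilrb4a in the order are uncertain, because 93.0% and 47.2% of their 50-base words occur in other genes.

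In LAIR1KO the order of Lilra5, Pirb, Lilr4b, Lilra6, Pira2 and Tarm1 was the same. Lilra5 stood at 154.3 ± 36.3 and Pirb at 81.0 ± 7.93 CPM per kb, again 1.91-fold apart. Pirb exceeded Lilra6 per kb 57.8-fold in WT and 28.3-fold in LAIR1KO, and exceeded Pira2 234-fold in WT and 467-fold in LAIR1KO. The upstream windows of these 3 genes were 96.0% to 97.7% identical to one another. The level of Lilr4b, at 3.89 ± 0.630 CPM per kb, overlapped with that of Lilra6, at 2.86 ± 0.882, in LAIR1KO. These are levels over the union of annotated exons of all transcripts of a gene, 7475 bases for Lair1 and 2109 for Lilra5, so they depend on the annotation. They also depend on how reads that match several genes were counted, which is not stated. As 93.0% of the 50-base words of Pira2 occur in other genes, its level and its ratios to Pirb are uncertain.

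Pirb, the inhibitory receptor for MHC class I and the closest counterpart of Lair1 in abundance, did not differ beyond the spread between libraries. The WT libraries held 380.9, 354.8, 360.3, 387.8 and 381.6 CPM of Pirb, and the LAIR1KO libraries 346.6, 385.2, 397.4, 372.7 and 308.3 CPM. LAIR1KO replicate 3 was above every WT library and LAIR1KO replicates 1 and 5 were below, so the groups overlapped on both sides. Its log2 fold change was -0.043 ± 0.087 (SE; unadjusted p = 0.625 and adjusted p = 0.824 by edgeR), with a 95% interval of -0.23 to 0.14. The spread was wider in LAIR1KO, with a coefficient of variation of 9.80% against 3.90% in WT.

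Lilra5, the most abundant of the 10 genes per kb, also overlapped between the groups. Its WT values were 352.6, 321.3, 307.5, 315.2 and 382.4 CPM, and its LAIR1KO values were 340.8, 305.2, 442.0, 308.5 and 230.9 CPM. LAIR1KO held both the highest value, in replicate 3, and the lowest, in replicate 5. LAIR1KO minus WT, the log2 fold change of Lilra5 was -0.045 ± 0.14 (SE), with an edgeR adjusted p of 0.901. The coefficient of variation was 23.5% in LAIR1KO and 9.29% in WT. The signs of both Pirb and Lilra5 turned positive without LAIR1KO replicate 5 (0.003 and 0.051 on the log2 scale), and neither passed the threshold.

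Lilra6 rose in LAIR1KO. Its WT values were 5.19, 6.48, 3.87, 2.76 and 3.72 CPM, and its LAIR1KO values were 11.3, 5.65, 11.5, 8.57 and 6.52 CPM. Of the 5 LAIR1KO libraries, 4 lay above every WT library, and replicate 2 lay within the WT range. The means were 4.40 ± 1.45 and 8.72 ± 2.69 CPM (SD, n = 5 each), a log2 fold change of 0.99 ± 0.28 (SE; edgeR adjusted p = 0.0498). Among all 13469 tested genes, 5.11% passed on the higher side and 1.68% on the lower side in LAIR1KO. Of all tested genes 95.5% had a smaller log2 fold change than Lilra6.

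The call for Lilra6 was kept without WT replicate 2 and without LAIR1KO replicate 2, and it was lost when any other of the 10 libraries was left out. The log2 fold change stayed between 0.86 and 1.17 over all 21 alternatives, with adjusted p from 0.0113 to 0.169. It was higher in LAIR1KO in each of them. LAIR1KO replicate 3, with the highest Lilra6, Pirb and Lilra5, had the lowest summed myeloid progenitor markers of its group, 3248 CPM. These markers summed to 4043 CPM in LAIR1KO replicate 2, with the lowest Lilra6 of its group, and were highest, 6950 CPM, in LAIR1KO replicate 5. Their part in the receptor values was not tested. RefSeq gives Pira3 as another name of Lilra6.

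**Figure D2:**
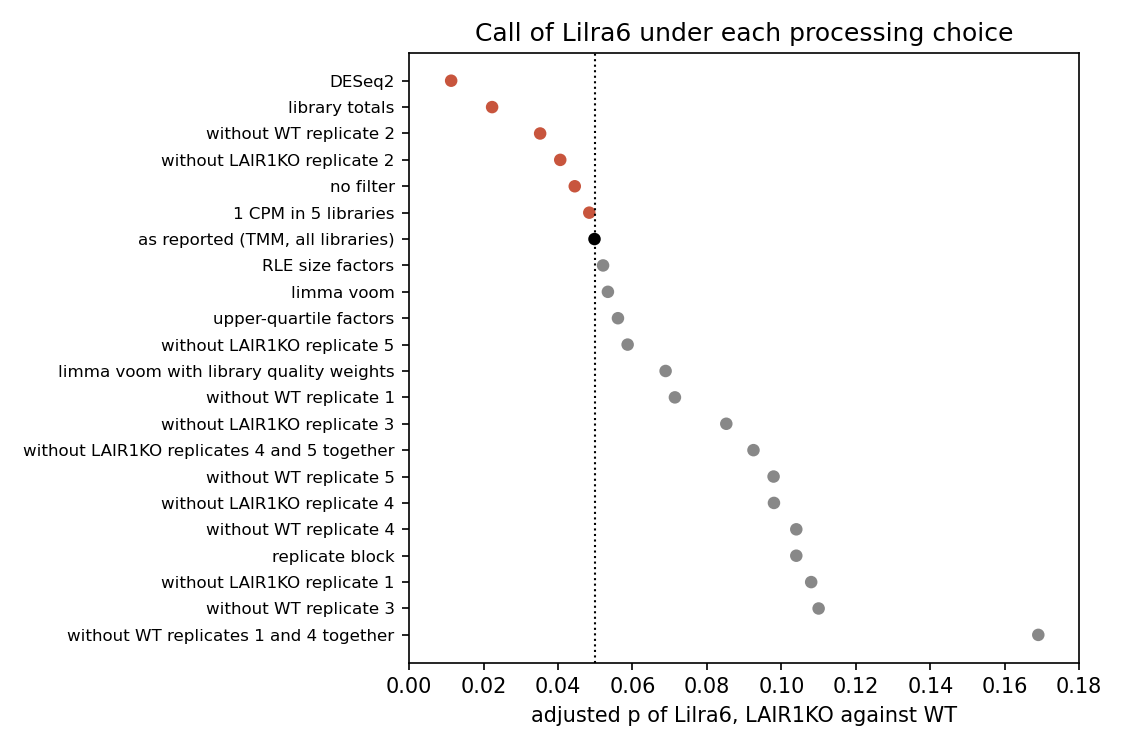
Adjusted p of Lilra6 in each alternative analysis, by other processing or with libraries left out (horizontal axis; the dotted line is the threshold of 0.05; the black point is the value as reported, 0.0498). The points spread from 0.0113 to 0.169 around the line, most of them on the side that does not pass.

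The other copies of the PIR group did not pass and differed in direction. WT values of Gm14548 were 1.51, 1.09, 1.64, 1.86 and 1.01 CPM, and LAIR1KO values were 2.75, 2.62, 3.38, 2.18 and 2.75 CPM. Every LAIR1KO library lay above every WT library. Groups that do not overlap, in either direction, were found for 7.66% of tested genes. The log2 fold change of Gm14548 was 0.94 ± 0.29 (SE), and it did not pass (edgeR adjusted p = 0.0718), but it passed with library totals, with DESeq2 and with voom quality weights.

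Pira2, an activating receptor for MHC class I, had values in the opposite direction. Its levels were 0.920, 1.18, 1.34, 1.59 and 1.16 CPM in WT, against 0.192, 0.269, 0.597, 0.857 and 1.09 CPM in LAIR1KO. Of the 5 LAIR1KO libraries 4 were below every WT library, and replicate 5 was within the WT range. With 3 to 23 counts per library its log2 fold change of -1.05 ± 0.47 (SE) did not pass (edgeR adjusted p = 0.205). Gm15448, another PIR-like gene, stood at 2.22 and 2.29 CPM on average (edgeR adjusted p = 0.953).

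**Figure D3:**
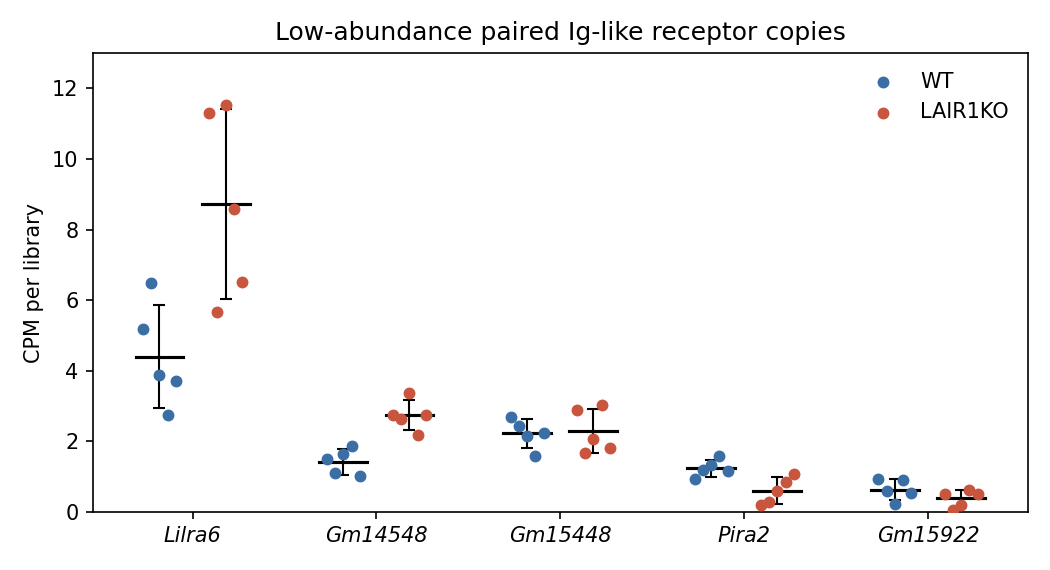
Level in CPM (linear axis from 0) of the low-abundance PIR genes Lilra6, Gm14548, Gm15448, Pira2 and Gm15922 in each library, with mean ± SD. LAIR1KO values of Gm14548 (2.18 to 3.38 CPM) do not overlap with WT, those of Lilra6 overlap in replicate 2, and Pira2 has its lowest values in LAIR1KO.

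Adding up the near-identical copies gave a total that was nearly that of Pirb. The 6 PIR genes of the list that are in the table summed to 383.0 ± 13.9 CPM in WT and 376.8 ± 36.1 CPM in LAIR1KO, a log2 ratio of -0.024. Pirb held 95.2% to 97.8% of these counts in each library. Without Pirb the other 5 summed to 11.2, 11.8, 9.22, 8.69 and 8.68 CPM in WT and to 17.6, 10.3, 17.8, 15.3 and 12.7 CPM in LAIR1KO. LAIR1KO replicate 2 was within the WT range and the other 4 were above it. Pseudogene copies share part of these sequences, and 4 of them (Gm15925, Gm15930, Gm15931 and Gm10693) were added to the sum after the data were seen. The log2 ratio of the 10 genes was again -0.024, and Pirb held 92.6% to 95.8% of the counts. The 9 genes other than Pirb summed to 16.9 to 27.4 CPM in WT and 21.4 to 29.9 CPM in LAIR1KO, a log2 ratio of 0.28 in place of 0.57, with overlap. Most of the added counts came from Gm15931, with 8.06 to 14.8 CPM per WT library and 8.63 to 11.3 CPM per LAIR1KO library. Whether reads of Pirb were placed in Lilra6, which held 40 to 177 counts per library against 4216 to 5994 for Pirb, was not tested. Reads left out of the counts for matching several genes would be missing from the sums too. With 93.0% of the 50-base words shared for Pira2 and 34.0% for Pirb, the share held by Pirb may depend on the counting rule.

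Lilr4b, formerly Gp49a, is a relative of Lilrb4a that lacks ITIM motifs. WT libraries held 28.9, 23.5, 31.5, 21.9 and 34.6 CPM, and LAIR1KO libraries held 21.6, 19.1, 17.5, 26.6 and 20.9 CPM. Of the LAIR1KO libraries 4 were below every WT library, and replicate 4 was within the WT range. A log2 fold change of -0.41 ± 0.16 (SE) did not pass (edgeR adjusted p = 0.156). Over 21 alternatives it ran from -0.53 to -0.28, with adjusted p from 0.09 to 0.348. The 95% interval of the fold was 0.591 to 0.958 and is not adjusted for the number of genes.

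**Figure D4:**
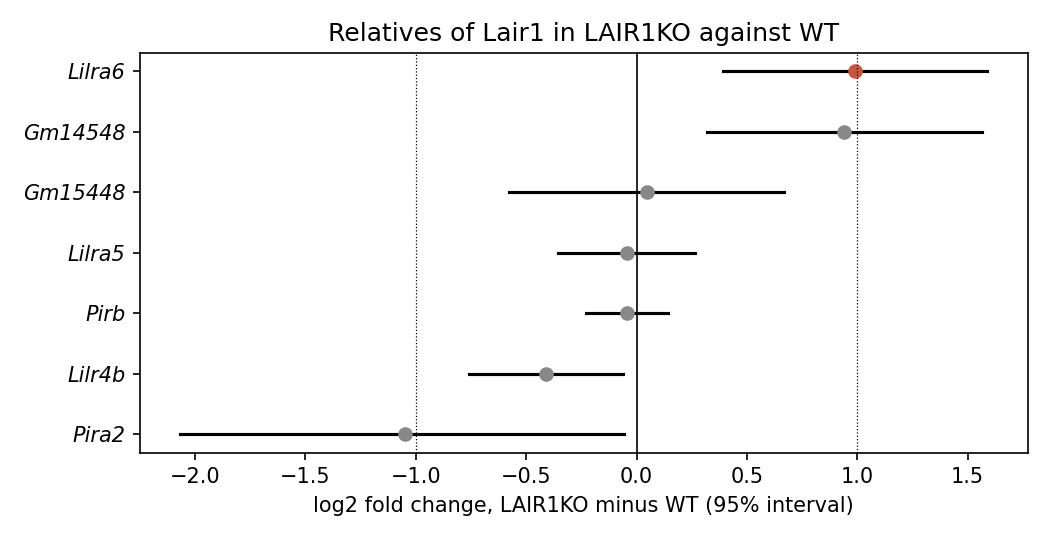
Log2 fold change of the tested relatives of Lair1 and of Gm14548 and Gm15448, LAIR1KO minus WT, with unadjusted 95% intervals (red, adjusted p under 0.05; dotted lines at a doubling and its inverse). Lilra6 and Gm14548 lie near 0.99 and 0.94, Pirb and Lilra5 lie close to 0 with the narrowest intervals, and Pira2 lies near -1.05 with the widest.

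Lilrb4a, the inhibitory partner of Lilr4b, was listed with 0 counts in 7 libraries and 1 count in 3. Of its annotated exon bases, 35.3% are shared with Gm49339, a readthrough gene on the same strand that held 0 to 4 counts, and 2.5% with the antisense Gm40645. The coding sequences of Lilrb4a and Lilr4b were 86.5% identical over 1010 aligned columns. The level of Lilrb4a cannot be read from counts that may leave out reads shared between genes, and whether they do was not tested. Lilrb4a and Lilr4b together summed to 28.1 ± 5.35 CPM in WT and 21.2 ± 3.45 CPM in LAIR1KO, nearly all from Lilr4b.

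The remaining receptors were at or near the limit of detection, where 3 counts correspond to 0.192 to 0.252 CPM. Oscar, the collagen receptor that costimulates osteoclasts, had 1 count in 3 libraries and 0 in the other 7. Tarm1, an activating collagen receptor known from neutrophils, had 7, 2, 16, 3 and 9 counts in WT and 7, 0, 4, 1 and 2 in LAIR1KO. Ncr1, the NK cell receptor NKp46, had 3 and 1 counts in WT replicates 1 and 2 and 0 in the other 8 libraries. In an edgeR fit without a filter on low counts, where 3.24% of 28060 genes passed, none of the 4 untested receptors did: adjusted p was 0.846 for Lilrb4a, 0.836 for Oscar, 0.417 for Tarm1 and 0.333 for Ncr1. Ncr1, with 4 counts in all, was the one of the 4 with an unadjusted p under 0.05. DESeq2 and voom were run on the filtered genes and give no value here.

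Among the adaptors and kinases that carry the signal of the activating members, Fcer1g fell. Of 14 listed 13 were tested, 1 fell and none rose, against 1.68% lower and 5.11% higher of all tested genes. The fold changes of 10 of 13 were below 0 (12 with RLE or upper-quartile scaling, 9 with library totals). The median log2 fold change was -0.23 against -0.0018 over all tested genes. The nonclassical monocyte markers, genes of the sorted cell itself, had 12 of 12 fold changes below 0 and a median of -0.26, so the adaptors lay no lower than these. Fcer1g is the common chain of PIR-A, Lilra5, Oscar and Tarm1. Its WT levels were 3355, 3045, 2891, 2988 and 2731 CPM, and its LAIR1KO levels were 2194, 2063, 2638, 1556 and 1419 CPM. The groups did not overlap, and LAIR1KO replicates 4 and 5 were lowest. The same libraries were lowest in Csk, H2-T23 and B2m and highest in summed myeloid progenitor markers (5541 and 6950 CPM, against 559.5 to 1445 CPM in WT), whose part in these values was not tested. Fcer1g had a log2 fold change of -0.60 ± 0.15 (SE, edgeR adjusted p = 0.0298). The call was kept without WT replicate 5, LAIR1KO replicate 1 or LAIR1KO replicate 3 and lost without any of the other 7 libraries. Without LAIR1KO replicates 4 and 5 together, no gene of the list passed and its median was -0.093. Tyrobp, the related adaptor DAP12, had a log2 fold change of -0.53 and missed the threshold (edgeR adjusted p = 0.0640), and DESeq2 and voom called it.

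The enzymes that inhibitory members recruit did not pass. Of the 9 listed ITIM effectors, all tested, 0 were called by edgeR, DESeq2 or voom, and 5 had an unadjusted edgeR p under 0.05. So did 4 of the 12 nonclassical monocyte markers, and the share of all tested genes at that unadjusted threshold was not computed. All 9 effectors had fold changes below 0, with a median of -0.33 on the log2 scale. With library totals, which shift the median of all genes to 0.13, 8 of 9 did. The nonclassical monocyte markers had the same pattern (12 of 12 below 0, 11 of 12 with library totals, median -0.26), and the difference between the lists was not tested. Csk, the kinase that holds Src kinases in check and binds the LAIR1 tail in human cells, averaged 302.1 ± 17.2 CPM in WT against 240.9 ± 43.4 CPM (log2 fold change -0.33, edgeR adjusted p = 0.129), with no overlap between groups. Inppl1, the inositol phosphatase SHIP-2, had a log2 fold change of -0.39 (edgeR adjusted p = 0.144). Ptpn6 itself was at 1674 and 1544 CPM (log2 fold change -0.12, edgeR adjusted p = 0.667). Without LAIR1KO replicates 4 and 5 the median of the list was -0.21, and Pag1, an adaptor that anchors Csk, passed on the lower side.

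**Figure D5:**
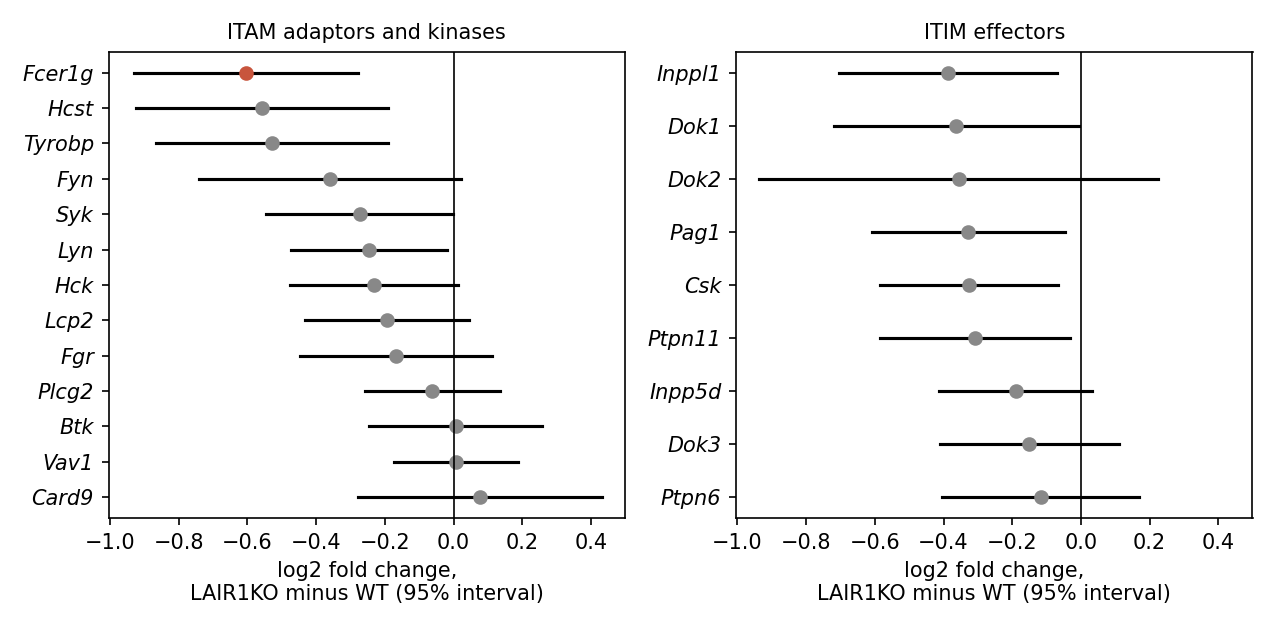
Log2 fold change of each tested gene, LAIR1KO minus WT, with unadjusted 95% intervals, for the ITAM adaptors and kinases and for the ITIM effectors (red, adjusted p under 0.05). Fcer1g, at -0.60, is the one red point, and all 9 ITIM effectors lie below 0 (8 of 9 with library totals).

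Among collagens and proteins with a collagen domain, C1q fell and Emid1 rose. Of 21 listed collagens and collagen-domain proteins 11 were tested, with a median log2 fold change of -0.75. Against 1.68% lower and 5.11% higher of all tested genes, 3 of the 11 fell and 1 rose. The 3 that fell were the chains of C1q, a soluble ligand of LAIR1. WT libraries held 440.1, 295.0, 324.9, 516.4 and 258.3 CPM of C1qb, and LAIR1KO libraries 73.6, 75.1, 65.9, 63.6 and 97.1 CPM. The lowest WT library lay well above the highest of LAIR1KO (log2 fold change -2.29 ± 0.19 SE, edgeR adjusted p = 6.69e-05). The 3 chains kept their calls in 22 of 22 alternatives. They are also markers of resident macrophages, of which 8 of 10 tested fell (summed 858.6 to 1386 CPM in WT and 303.0 to 384.2 CPM in LAIR1KO). The 3 chains are themselves among these 8 and are part of the sums. The other markers that fell were Mertk, Axl, Vcam1, Spic and Mrc1. The part of resident macrophages in the result was not tested. Emid1, a secreted protein with a collagen domain, rose from 0.922 ± 0.375 to 3.57 ± 1.30 CPM (edgeR adjusted p = 0.00958), without overlap. It did not pass when LAIR1KO replicates 4 and 5 were left out (adjusted p = 0.088). Col4a1, Col4a2, Col5a1, Col17a1 and Col23a1 were tested and did not pass, with adjusted p from 0.288 to 0.905. Col13a1, Sftpd and Mbl1 had 0 counts in every library. Of 12 other collagen receptors 7 were tested and 1 fell, the mannose receptor Mrc1 (log2 fold change -1.39, edgeR adjusted p = 0.00825), which did not pass when WT replicates 1 and 4 were left out (adjusted p = 0.0699).

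All 12 listed genes of the MHC class I pathway, which provides the ligands of PIR-A and PIR-B, were tested and had fold changes below 0 (9 of 12 with library totals), with a median of -0.25, against -0.26 for the nonclassical monocyte markers, all 12 of them also below 0. H2-T23, the gene of Qa-1, was the 1 of 12 that fell, against 1.68% lower of all tested genes. It went from 342.9 ± 29.2 to 259.2 ± 38.8 CPM (log2 fold change -0.40, edgeR adjusted p = 0.046). This call was kept only without LAIR1KO replicate 3 among the 10 analyses that leave out a library. B2m passed in 5 of 22 alternatives: RLE scaling, DESeq2, voom with and without quality weights, and without LAIR1KO replicate 3. H2-D1 passed in 2 of 22, with DESeq2 and without LAIR1KO replicate 3. The shared light chain B2m had a log2 fold change of -0.49 (edgeR adjusted p = 0.0503) and the classical heavy chain H2-D1 -0.37 (edgeR adjusted p = 0.0951). Without LAIR1KO replicates 4 and 5 the median of the list was -0.13 and no gene passed.

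Of 11 other listed ligands 10 were tested, 3 fell and none rose, against 1.68% lower and 5.11% higher of all tested genes. The median of the list was -0.21, against -0.26 for the nonclassical monocyte markers. Rtn4, which encodes the PIR-B ligand Nogo, went from 80.3 ± 16.2 to 51.3 ± 11.4 CPM (log2 fold change -0.64, edgeR adjusted p = 0.0394). Apoe, a ligand of LILRB4 in human, went from 14130 to 9489 CPM (log2 fold change -0.57, edgeR adjusted p = 0.0456). Cfp, which encodes properdin, a ligand of NKp46, went from 180.1 ± 10.1 to 133.9 ± 23.5 CPM (log2 fold change -0.43, edgeR adjusted p = 0.0391). The calls of Rtn4 and Apoe were each lost in 8, and that of Cfp in 9, of 10 analyses that leave out a library, and each was kept without LAIR1KO replicate 1. None of the 3 passed when LAIR1KO replicates 4 and 5, or WT replicates 1 and 4, were left out, and none passed with library totals (median of the list -0.077).

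The genes most like Lilra6 across the 10 libraries were Zfp235, Tbc1d7 and Platr25, measured by the root mean square difference of centred log2 CPM (0.261, 0.349 and 0.355). Lair1 had no close match: the nearest genes, Reps2, Kcnk13 and Mertk, were 4.50, 4.56 and 4.57 away.

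Library totals were 12106209 to 15356924 counts. The 12 nonclassical monocyte markers were all present, with summed levels of 9863 to 12910 CPM in WT and 8059 to 10870 CPM in LAIR1KO, with 12 of 12 fold changes below 0 and 0 of 12 past the threshold by edgeR (4 at unadjusted p under 0.05, and 1 by DESeq2). For counts at unadjusted p, the share of all tested genes was not computed. Markers of some other cells differed between the genotypes, against 1.68% lower and 5.11% higher of all tested genes. Of 12 myeloid progenitor markers 10 rose (summed 559.5 to 1445 CPM in WT and 3248 to 6950 CPM in LAIR1KO). Of 7 erythroid and platelet markers 3 fell (65.1 to 922.3 and 27.8 to 89.7 CPM). Of 7 tested dendritic cell markers 3 fell and 1 rose, and of 6 tested classical monocyte markers 2 rose. Of 6 tested mast cell, basophil and eosinophil markers 1 rose, and of 6 tested B cell markers none passed. Beside Oscar, 3 of 6 tested osteoclast markers fell (514.2 to 640.7 and 428.7 to 494.5 CPM, with Calcr at 0), and beside Tarm1 0 of 10 neutrophil markers passed by edgeR or DESeq2 and 1 at unadjusted p (389.5 to 1977 and 1007 to 1619 CPM). Beside Ncr1, 2 of 11 NK and T cell markers could be tested and 1, Nkg7, rose, from 11.1 to 28.2 CPM. The other, Klrd1, went the opposite way, with a fold change below 0, and did not pass. Both had an unadjusted edgeR p under 0.05. The summed list was 12.1 to 27.2 CPM in WT and 22.8 to 51.7 CPM in LAIR1KO, with Klrb1c at 0.0640 and 0.106 CPM. The part of these cell types in the receptor values was not tested, and in bulk RNA fewer cells of a type and less RNA per cell cannot be told apart.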

How the data were processed

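The aligner was GSNAP and the genome GRCm38.p5, per the submitters' processing notes. How reads were counted (tool, annotation, strand, multiple matches) is not given in the sources used here. Raw read counts per gene, not normalized, were deposited by the authors, and 0 columns were unmatched to a library. Per the labels' protocols, cells were sorted at 98% purity. The labels do not say that libraries came from separate mice, so p-values reflect library-to-library spread only, which may be technical. Between replicates, chi-square over degrees of freedom was 15.6 to 79.5, far beyond sampling noise.

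Names, exons and coordinates came from GENCODE M21 (GRCm38; 52489 gene IDs matched), upstream sequences from RefSeq (GRCm38.p6; 9 of 10 receptors matched). Counts were tested in R 4.3.3 with edgeR 4.0.16 (filterByExpr with a minimum count of 10 and a minimum total of 15, TMM, quasi-likelihood test without covariate), with Benjamini-Hochberg adjustment over all 13469 genes and a threshold of 0.05. Intervals are at 95%. CPM use TMM-scaled library sizes. Antisense overlaps could not be separated. The procedure was tested on simulated data.

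The receptors and gene lists were chosen with earlier results of these data known. The text names all 10 receptors, up to 4 members of each pathway list past the threshold (otherwise 2) and members that a sentence needs, the 3 genes most like each called receptor, and defining markers. Alternatives were RLE, upper-quartile and library-total scaling, no filter, a filter of 1 CPM in 5 libraries, limma 3.58.1 voom with and without quality weights, DESeq2 1.42.0, summed copies, the replicate block, and libraries left out. Sequences were aligned with Biopython 1.88.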

Additional observations from a re-analysis of the deposited data

Results flagged for a closer look

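Of 66 groups of 5 libraries checked for a single library apart from the rest, 3 were picked out, and chance picks out about 1 in 20 groups. Lilrb4a stood at 0.0842 CPM in WT replicate 2, which is 1 count, while the other 4 WT libraries were at 0. Oscar stood at 0.0775 CPM in WT replicate 5, also 1 count, with 0 in the other 4. Both rest on a single read. Cfp, which encodes properdin, stood at 174.5 CPM in LAIR1KO replicate 1, against 115.9 to 132.8 CPM in the other 4 LAIR1KO libraries, and that library lay within the WT range.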

How the results depend on the processing

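The number of genes past the threshold was 914. It was 1379 with library totals, 1523 with DESeq2, 376 without LAIR1KO replicates 4 and 5, 338 without WT replicates 1 and 4, and 535 to 1170 with 1 library left out (585 without WT replicate 3, 535 without LAIR1KO replicate 4, 594 without LAIR1KO replicate 5). With library totals 90.1% of calls were higher in LAIR1KO against 75.3%, and the median of all genes was 0.13. Receptor genes past the threshold were 2 (Lair1, Lilra6), and 1, Lair1, under RLE, upper-quartile scaling, voom with and without quality weights and both pairs of libraries left out. With copies summed the number was also 1, because Lilra6 is then part of the sum and not tested. They were 1 to 2 with 1 library left out. With the replicate block, 600 genes and 1 receptor passed (Lilra6 adjusted p = 0.104). Same-numbered libraries had correlations of -0.0653 to 0.0392, 0 of 5 over 0.1, and 0 of 10 libraries correlated best with its own number. With library totals the log2 ratio of summed PIR copies was 0.104, and signs turned for Pirb (0.085), Lilra5 (0.075) and Ptpn6 (0.009). Without LAIR1KO replicates 4 and 5 they turned for Pirb (0.011), Lilra5 (0.11), Ptpn6 (0.034) and Gm15448 (-0.009). With 1 library left out, log2 fold changes ran from -0.08 to 0.003 for Pirb, from -0.181 to 0.051 for Lilra5 and from -0.075 to 0.133 for Gm15448, so their signs were not settled. DESeq2 gave no adjusted p for Pira2. The causes were not tested. Among the tested relatives of Lair1, Pira2 had the fewest counts, 3 to 23 per library. Of its 50-base words 93.0% occur in other genes, and whether depth or shared reads limit it was not tested.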
